A study of Mus musculus with 27 samples.

Results

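Pancreatic islets of Langerhans of 8-week-old female mice without Batf3 were compared with islets of 8-week-old female mice without Rag1. Both genotypes (NOD.Batf3-/- and NOD.Rag1-/- in the labels) are on the NOD/ShiLt background, the strain whose females develop autoimmune diabetes. Neither labels nor files say how much DNA of another strain remains around either knockout. The comparison holds 6 Batf3-/- mice and 6 Rag1-/- mice, 12 of the 27 mice of the study, chosen by their titles. The other mice are 6 NOD mice without a knockout at 8 weeks and 3 mice of each of the 3 genotypes at 6 weeks. Total RNA of each islet preparation was read on 1 Affymetrix whole-transcript mouse array after a column extraction, and the mice had no treatment. The labels write both alleles as plain knockouts and name no driver or cell type for either. All 19938 genes with a probe set of a single symbol were tested, each through its probe set of highest mean.

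Batf3 is a transcription factor of the AP-1 family that is needed for the dendritic cells that cross-present antigen to CD8 T cells. Rag1 is part of the recombinase that assembles antigen receptor genes, and mice without it have neither mature T cells nor mature B cells. Both knockouts are used in NOD mice as mice protected from diabetes, in one case with lymphocytes present in the body and in the other without them. Setting the knockouts side by side therefore asks in which genes islets differ when lymphocytes exist but cross-presenting dendritic cells do not.

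The samples carried the RNA of islets. Ins2, the main mouse insulin gene, lay at 12.50 to 12.64 in the Batf3-/- mice and at 12.44 to 12.66 in the Rag1-/- mice (log2 RMA value, a background-corrected and quantile-normalized probe summary). Enzyme genes of the acinar tissue around the islets were also present and varied widely from mouse to mouse, with a mean over 23 genes of 5.98 to 9.13 and 6.07 to 8.74. The medians of all probe sets ran from 4.95 to 5.0 in the Batf3-/- arrays and from 4.95 to 4.98 in the Rag1-/- arrays. The number of arrays, not a read depth, limits the precision here.

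In 46 of the 19938 genes (0.231%) the genotypes differed at 8 weeks at an adjusted p under 0.05 by limma with Benjamini-Hochberg adjustment, which is what "called" means below. Of these, 17 (0.0853% of all genes) rose and 29 (0.145%) fell in Batf3-/- relative to Rag1-/- islets. With the arrays centred on their medians the split was 16 and 47. The 6 values of one genotype lay wholly above the 6 of the other in 217 genes (1.09%), and 41 of the 46 called genes were among them. The exceptions, whose groups overlapped, were Cd79a, Hspb1, Mir7-2, Trpc4 and Bod1l. The median difference of all genes was 0.01 on the log2 scale, and 2024 genes (10.2%) had an unadjusted p under 0.05, of which 1014 were lower in Batf3-/- islets. How many genes were called depended on single mice. Without Batf3-/- mouse 2, 3, 4, 5 or 6 there were 24, 22, 28, 27 or 20 calls, and without Rag1-/- mouse 3, 4 or 6 there were 17, 19 or 22. Without Rag1-/- mouse 2 there were 31, of which 6 rose. Among the 46, 14 were called in all 12 fits that each left out 1 mouse: 3830406C13Rik, Rsph1, Sdc2, Slc37a1, Mir7b, Cd44, Eif5b, Snord52, Vaultrc5, Zc3h13, Acadl, Lancl1, Eif3a and Rag1.

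The engineered genes gave no check of the labels. Batf3 lay at 4.19 to 4.54 in Batf3-/- islets and at 4.09 to 4.60 in Rag1-/- islets, and its difference of -0.04 had a 95% interval of -0.26 to 0.19. Rag1 lay at 2.63 to 3.17 (median 3.02) in Batf3-/- islets and at 3.45 to 3.79 (median 3.58) in Rag1-/- islets. The Rag1 probe set was thus higher in the mice without the gene, by 0.66 (standard error 0.10, adjusted p = 0.0138), and the NOD mice lay at 2.52 to 3.02. All Batf3 and Rag1 values given here lie under the median of all probe sets, 5.10, and those of Rag1 far under it. Neither labels nor files say which part of each gene was deleted or whether its probes lie there.

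Rsph1 and Slc37a1 fell together in Batf3-/- islets, and they are direct neighbours in the gene order of chromosome 17. Rsph1, a component of the radial spokes of motile cilia, lay at 5.85 to 6.30 (median 6.09) in Batf3-/- mice and at 7.64 to 8.20 (median 8.01) in Rag1-/- mice. The groups lay far apart, with a 3.67-fold lower mean in Batf3-/- islets (log2 difference -1.88, standard error 0.11, adjusted p = 2.13e-07). Slc37a1, which codes for a sugar-phosphate transporter, lay at 8.04 to 8.71 against 9.24 to 9.53. Its mean was 1.99-fold lower (log2 difference -0.99, adjusted p = 0.000499). In the 6 NOD mice Rsph1 lay at 6.07 to 6.45 and Slc37a1 at 7.98 to 8.51, values that overlapped those of the Batf3-/- mice and lay below every Rag1-/- mouse. Btbd9, 11 places from Rsph1 on the same chromosome, was lower as well, with values of 6.15 to 6.85 against 7.02 to 7.23 (adjusted p = 0.032), but here the NOD mice, at 6.92 to 7.41, overlapped the Rag1-/- mice. The call of Btbd9 held in 1 of the 12 fits that left out a mouse, with adjusted p up to 0.0934.

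The lowest adjusted p of all belonged to 3830406C13Rik on chromosome 14, a gene known here by its clone name and outside the naming rule for that reason. It lay at 4.59 to 5.36 (median 4.92) in Batf3-/- islets and at 7.18 to 7.84 (median 7.51) in Rag1-/- islets, a 5.92-fold lower mean (log2 difference -2.57, standard error 0.13, adjusted p = 6.65e-08). The NOD mice ran from 5.12 to 7.35 and so reached into both ranges. Fam107a, an actin-binding stress-response gene 5 places away, went the other way, at 7.10 to 7.80 against 6.16 to 7.05 (log2 difference 0.81, adjusted p = 0.0381). The call of Fam107a held in 2 of the 12 fits without a mouse, with adjusted p up to 0.0992.

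**Figure D1:**
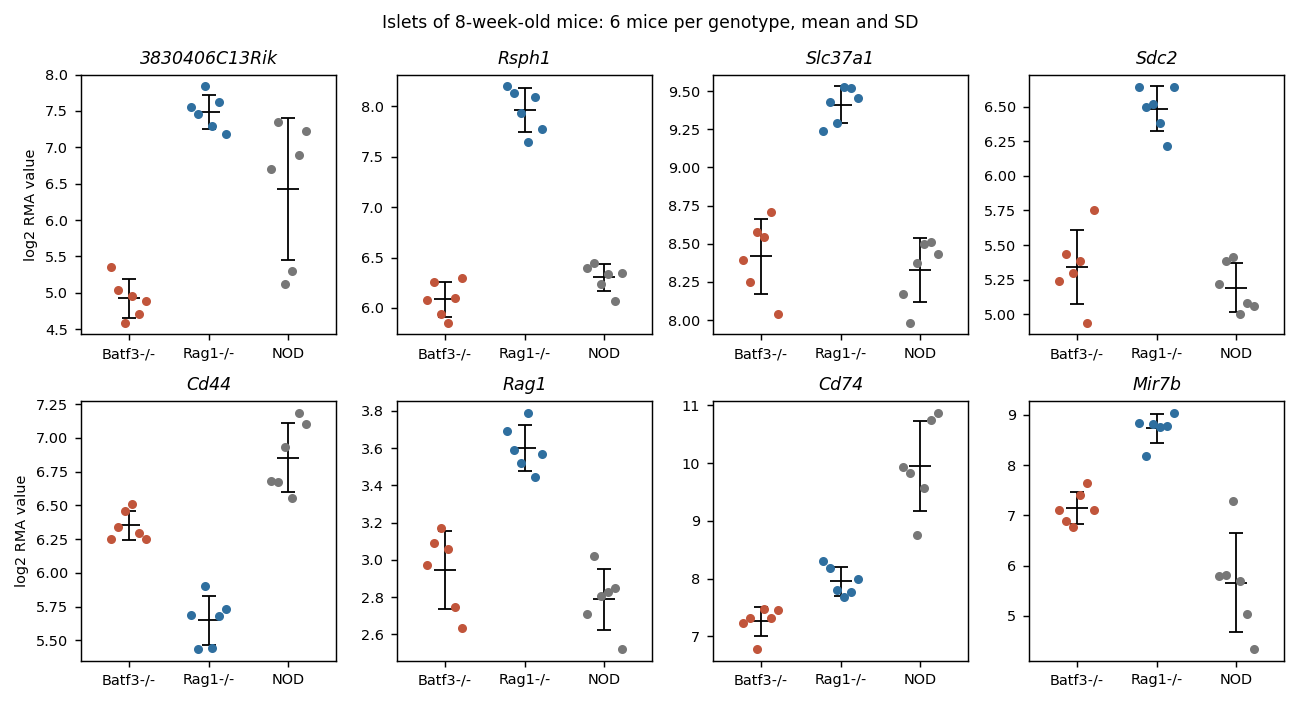
Values of 8 genes in islets of 8-week-old mice (vertical axis, log2 RMA value, each panel with its own scale), with 1 point per mouse, 6 mice per genotype, and the mean with its SD in black. In every panel the Batf3-/- and Rag1-/- points do not overlap, while the NOD points overlap the Batf3-/- mice in Rsph1 (6.07 to 6.45) and lie above both groups in Cd74 (8.76 to 10.87).

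Cd44, the receptor for hyaluronan and a marker of activated leukocytes that islet and stromal cells also carry, rose in Batf3-/- islets. Its values were 6.25 to 6.51 (median 6.32) in Batf3-/- mice and 5.44 to 5.90 (median 5.69) in Rag1-/- mice. The groups did not overlap, and the mean was 1.63-fold higher in Batf3-/- islets (log2 difference 0.70, standard error 0.09, adjusted p = 0.0032). NOD islets lay higher again, at 6.55 to 7.19. Among 12 measured genes of leukocyte adhesion and homing Cd44 was the 1 called. Of the 12, 5 differed above 0 and 7 below, with a median of -0.06. At an unadjusted p under 0.05, 2 of them were higher and 0 lower. Cd44 is 9 places from Rag1 in the gene order of chromosome 2. Of the 30 genes within 15 places of Rag1 it was the 1 called, against 0.231% of all genes. The others differed by -0.43 to 0.36, with a smallest adjusted p of 0.219. Among these others 7 had an unadjusted p under 0.05, which 10.2% of all genes reached. None of the 30 genes around Batf3 on chromosome 1 was called by limma, with 4 unadjusted p-values under 0.05 and a smallest adjusted p of 0.154.

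**Figure D2:**
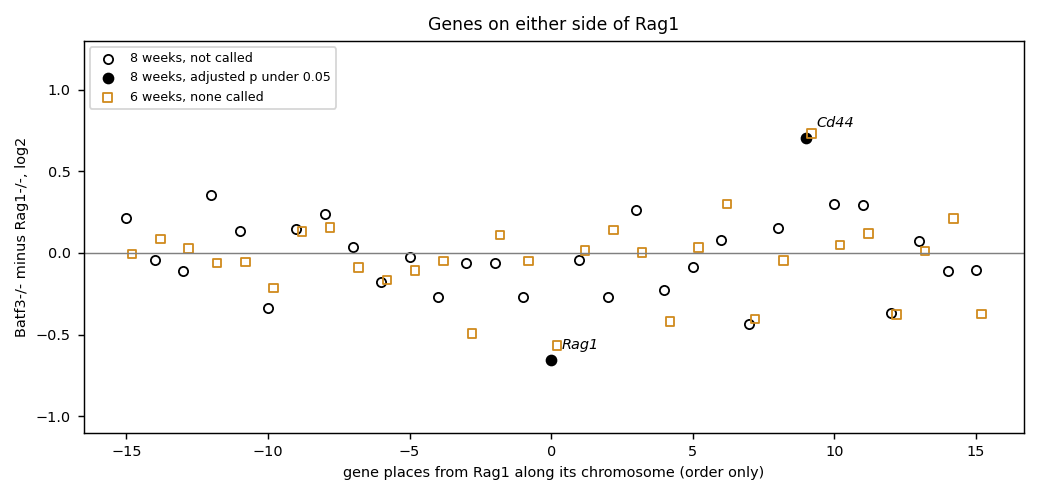
Difference between Batf3-/- and Rag1-/- islets (vertical axis, log2) for Rag1 and the 30 genes within 15 places of it, ordered along the chromosome by place and not by distance (horizontal axis), at 8 weeks (circles, filled where called) and 6 weeks (squares). Rag1 at -0.66 and Cd44 at 0.70 are the filled points, and the 6-week squares of both lie beside them at -0.57 and 0.73.

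Sdc2, the cell-surface heparan sulfate proteoglycan syndecan-2, fell in Batf3-/- islets. It lay at 4.94 to 5.75 (median 5.34) against 6.22 to 6.65 (median 6.51), a 2.21-fold lower mean (log2 difference -1.15, standard error 0.12, adjusted p = 0.000343). NOD mice, at 5.0 to 5.42, overlapped the Batf3-/- mice. Ccdc141, a coiled-coil protein gene on chromosome 2, lay at 4.08 to 5.04 against 5.23 to 5.96. Each of its 5 probe sets was lower in Batf3-/- islets, with differences of -0.52 to -1.18. Its adjusted p was 0.0246 and its call held in 8 of the 12 fits without a mouse. Rhobtb1 lay at 8.43 to 9.02 against 9.15 to 9.49 (adjusted p = 0.030), with NOD mice at 8.23 to 8.91, and held in 3 of the 12.

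The 35 gene lists of cell types and pathways were chosen with earlier results of these data known. Of these lists 29 held no called gene and the circadian clock held the most. The clock runs in each cell as a loop in which Arntl with Clock turns on the Per, Cry, Nr1d and PAR bZIP genes, whose products then act back on Arntl and on one another, and in islets it paces insulin release. Of 16 measured clock genes 5 were called, against 0.231% of all genes, and the median difference of the list was 0.39 against 0.01 for all genes. Dbp, Hlf and Nr1d2 rose and Arntl and Nfil3 fell in Batf3-/- islets. In 6 of the 16 the groups did not overlap, against 1.09% of all genes.

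Dbp, a PAR bZIP activator that is a direct output of the clock, lay at 7.21 to 7.61 (median 7.32) in Batf3-/- mice and at 5.95 to 6.97 (median 6.39) in Rag1-/- mice. Its log2 difference was 0.89 (standard error 0.15, adjusted p = 0.030). Hlf, a second PAR bZIP factor, lay at 5.35 to 5.77 against 4.42 to 5.34, with a log2 difference of 0.72 (adjusted p = 0.032). Nr1d2, a nuclear receptor that represses Arntl, lay at 8.33 to 8.56 against 7.55 to 8.14, with a log2 difference of 0.57 (adjusted p = 0.032). In all of these every Batf3-/- mouse was above every Rag1-/- mouse, and the Rag1-/- mice spread more widely.

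Arntl and Nfil3 fell, without overlap of the groups. Arntl, the activator at the head of the loop, lay at 5.04 to 5.60 (median 5.41) in Batf3-/- mice and at 5.78 to 6.13 (median 5.93) in Rag1-/- mice (log2 difference -0.57, standard error 0.10, adjusted p = 0.0246). Nfil3, a repressor that binds the same sites as Dbp and Hlf, lay at 6.59 to 7.25 against 7.48 to 7.92 (log2 difference -0.70, standard error 0.12, adjusted p = 0.0261). NOD islets lay between or across both groups, at 5.08 to 6.03 for Arntl, 6.48 to 7.58 for Nfil3 and 6.71 to 7.42 for Dbp.

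Other members had differences of like size without a call. Ciart differed by 0.82 (adjusted p = 0.42), Per3 by 0.77 (0.068), Nr1d1 by 0.75 (0.090), Cry2 by 0.57 (0.20), Tef by 0.50 (0.068) and Cry1 by -0.58 (0.21). Per1, Per2 and Clock differed by 0.12, -0.04 and 0.05, with 95% intervals of -0.12 to 0.35, -0.22 to 0.13 and -0.10 to 0.20. The calls in this list were sensitive to single mice: Arntl held in 8, Nfil3 in 6, Dbp in 4, Hlf in 3 and Nr1d2 in 2 of the 12 fits without a mouse, with adjusted p up to 0.063, 0.0694, 0.0886, 0.0934 and 0.0886. The labels do not say at which hour islets were taken, and its part in these differences was not tested.

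**Figure D3:**
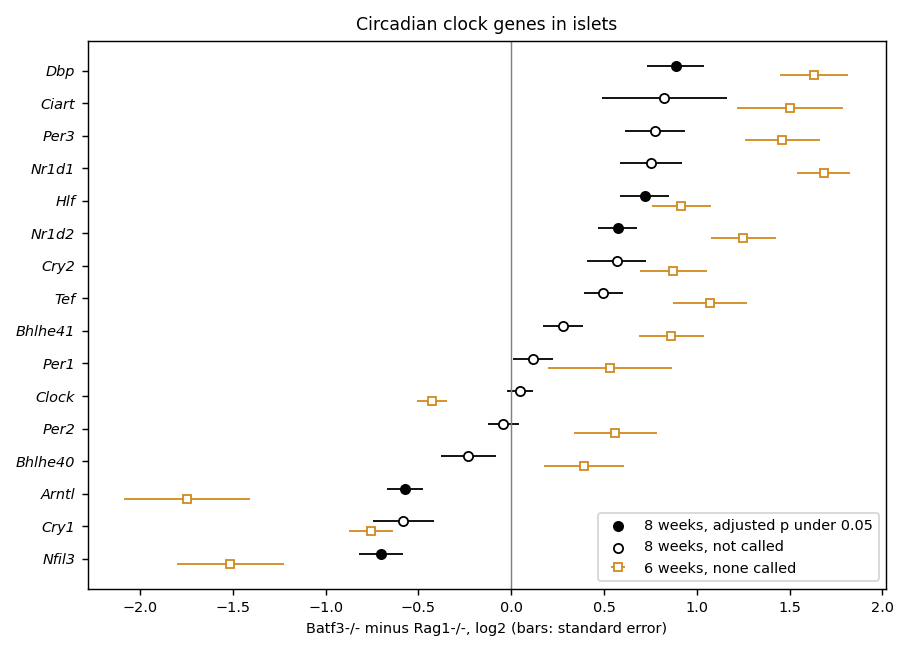
Difference between Batf3-/- and Rag1-/- islets (horizontal axis, log2, bars are the standard error) for 16 clock genes at 8 weeks (circles, 6 and 6 mice, filled where called) and at 6 weeks (squares, 3 and 3 mice). Dbp sits at 0.89 and 1.63, Arntl at -0.57 and -1.75, and all 16 genes have the larger absolute difference at 6 weeks.

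The same clock genes were measured in other mice at 6 weeks, where none was called by limma (10 were higher and 4 lower in Batf3-/- islets at an unadjusted p under 0.05, which 8.12% of all genes reached). There 13 of the 16 had the sign they had at 8 weeks, all 16 had a larger absolute difference, and in 14 the 3 mice of one genotype lay wholly above the 3 of the other, which 11.7% of all genes did. Dbp was higher by 1.63, Nr1d1 by 1.68 and Per3 by 1.46, and Arntl differed by -1.75 and Nfil3 by -1.51. No clock gene passed the test of a change between the ages, whose smallest adjusted p in the list was 0.179.

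Known regulatory elements of the clock are shown for Nr1d2 and Nfil3, which were called, and for Per3 and Cry1, which were not. A RefSeq window (GRCm38.p6) of 250 bases before to 50 after the start site was found for 14 of the 16 genes. Each was searched on both strands for the E-box CACGTG bound by Arntl with Clock, for the core AGGTCA of the element bound by ROR and Nr1d receptors, and for the D-box TTATGTAA or TTACGTAA bound by Dbp, Hlf, Tef and Nfil3. The E-box was in 5 of the 14 (35.7%, against 8.09% of all genes with a window), the receptor core in 5 (35.7% against 18.1%) and the D-box in Per3 alone (7.14% against 1.23%). The list was made of known clock genes, so these shares do not bear on the genotypes. No called clock gene held the E-box or the D-box. The receptor core was in Nr1d2, which rose, and in Arntl and Nfil3, which fell. Among all genes called at 8 weeks with a window, 17.6% held the receptor core. No matches of different motifs shared bases in the windows of this list, although the E-box and the receptor core did in 64 windows of other genes. Capitals mark the match, or its reverse complement, and all stretches end before the start site.
Nr1d2 promoter, receptor core, chr14:18239156-18239203, minus strand: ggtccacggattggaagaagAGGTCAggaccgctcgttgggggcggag
Nfil3 promoter, receptor core, chr13:52981040-52981071, minus strand: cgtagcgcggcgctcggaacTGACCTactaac
Per3 promoter, D-box, chr4:151044796-151044890, minus strand: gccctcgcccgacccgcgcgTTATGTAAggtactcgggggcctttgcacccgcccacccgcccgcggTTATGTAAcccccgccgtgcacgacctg
Cry1 promoter, E-box, chr10:85185087-85185134, minus strand: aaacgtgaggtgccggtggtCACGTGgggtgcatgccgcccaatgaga
The windows of Dbp, Hlf and Tef gave no receptor core, and a match or its absence describes these letters only. The Per3 stretch holds 2 D-boxes, and the nearer begins 158 bases before the start site. The match in Nfil3 begins 12 bases before it, that in Cry1 60 and that in Nr1d2 77.

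Markers of T cells did not separate the genotypes. Of 20 measured T cell genes none was called by limma, none had an unadjusted p under 0.05, and the median difference was -0.04. Cd3e, a chain of the T cell receptor complex, lay at 4.16 to 4.63 in Batf3-/- islets and at 4.28 to 4.74 in Rag1-/- islets, and the 95% interval of its difference ran from -0.34 to 0.08. Cd8a and Cd4 differed by -0.03 (interval -0.33 to 0.27) and -0.05 (-0.35 to 0.25). The mean level over the list was 3.93 to 4.16 in Batf3-/- mice and 3.87 to 4.10 in Rag1-/- mice, against 4.11 to 5.61 in NOD mice. In whole islets, fewer cells of a type and less RNA per cell cannot be told apart. The Rag1-/- mice have no mature T cells, so their values show the level these probe sets read without them.

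B cell genes gave 1 call in 19, against 0.231% of all genes. Cd79a, the signalling chain of the B cell receptor, lay at 4.54 to 5.57 (median 5.27) in Batf3-/- mice and at 3.88 to 4.80 (median 4.01) in Rag1-/- mice (log2 difference 0.99, standard error 0.18, adjusted p = 0.032), and the groups overlapped. Its partner Cd79b differed by 0.13 (interval -0.10 to 0.35), the surface protein gene Ms4a1 by -0.19 (-0.45 to 0.06) and the immunoglobulin heavy chain gene Ighm by 0.21 (-0.03 to 0.46). Cd79a held in 3 of the 12 fits without a mouse, with adjusted p up to 0.0934. Natural killer cell genes had 0 calls in 12 and none with an unadjusted p under 0.05.

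Genes of the dendritic cells that need Batf3 had 0 calls in 14 and none with an unadjusted p under 0.05, at a median difference of -0.02. The chemokine receptor Xcr1 lay at 2.97 to 3.67 against 3.19 to 4.20 (difference -0.28, interval -0.63 to 0.07), the dead-cell receptor Clec9a at 3.00 to 3.68 against 2.72 to 3.50 (0.16, -0.14 to 0.46) and the integrin Itgae at 3.34 to 3.65 against 3.14 to 3.91 (0.04, -0.21 to 0.30). All of these lie under the median of the probe sets. The mean over the list was 3.99 to 4.09 in Batf3-/- mice and 4.03 to 4.17 in Rag1-/- mice, with NOD mice at 4.14 to 5.13. Macrophage genes likewise had 0 calls in 24, none with an unadjusted p under 0.05 and a median of -0.09. The colony-stimulating factor receptor Csf1r differed by -0.05 (interval -0.28 to 0.18), and Lyz2, a lysozyme of macrophages and neutrophils, by -0.31 (-0.71 to 0.08).

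Antigen presentation by MHC class II differed in part. Of 10 measured genes 2 were called, against 0.231% of all genes. These were Cd74 and H2-Aa, and both fell in Batf3-/- islets. Cd74, the invariant chain that guides class II molecules to the compartment where they are loaded, lay at 6.78 to 7.47 (median 7.32) against 7.68 to 8.31 (median 7.90), with a log2 difference of -0.69 (standard error 0.13, adjusted p = 0.0428). H2-Aa, the alpha chain of the class II molecule I-A, lay at 5.83 to 6.08 against 6.20 to 6.37, with a log2 difference of -0.37 (standard error 0.07, adjusted p = 0.0381). In both the groups did not overlap. The beta chain H2-Ab1 differed by -0.47 (adjusted p = 0.28), H2-Eb1 by -0.35 (0.29), the protease Ctss by -0.27 (0.26) and H2-Oa, part of a peptide-editing complex of B cells, by 0.47 (0.16). Ciita, the master activator of the class II genes, differed by 0.06 with an interval of -0.19 to 0.30. NOD islets were far higher, with Cd74 at 8.76 to 10.87 and H2-Aa at 7.09 to 9.23. Cd74 lost its call in each of the 12 fits without a mouse (adjusted p 0.0523 to 0.0937) and H2-Aa in 11 of them (0.0478 to 0.102).

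Genes induced by type I interferon lay lower in Batf3-/- islets as a list, with few calls. Rtp4, a chaperone gene induced by interferon, was the 1 called of 28, against 0.231% of all genes. It lay at 5.23 to 5.78 (median 5.59) against 6.05 to 6.71 (median 6.11), with a log2 difference of -0.68 (standard error 0.13, adjusted p = 0.0381). In 23 of the 28 the difference was below 0, in 11 it was lower at an unadjusted p under 0.05, and the median was -0.20. Ifi27l2a lay at 4.02 to 5.37 against 5.45 to 5.97 and did not overlap, but its adjusted p was 0.053 at a difference of -0.98. Rsad2, which codes for the antiviral enzyme viperin, differed by -0.54 (adjusted p = 0.19) and the transcription factor Irf7 by -0.50 (0.30). Rtp4 held its call in 1 of the 12 fits without a mouse, with adjusted p up to 0.0906.

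The mean level over the type I interferon list was 4.89 to 5.11 in Batf3-/- mice, 5.14 to 5.33 in Rag1-/- mice and 5.24 to 6.17 in NOD mice, so every Batf3-/- mouse lay below every Rag1-/- mouse. At 6 weeks the median difference of the list was -0.23. Of the 28 genes 24 had the sign of 8 weeks, against 50.2% of all genes. At 6 weeks 11 were lower at an unadjusted p under 0.05, which 8.12% of all genes reached with either sign. In 12 the 6-week groups did not overlap, against 11.7% of all genes. Oas2, Bst2 and Ifitm3 differed by -1.24, -1.11 and -0.98 at 6 weeks and by -0.13, -0.07 and -0.35 at 8 weeks, where none was called and the sign of Bst2 changed when 1 mouse was left out. The interferon-stimulated response element GAAANNGAAA was in the promoter windows of 11 of 19 list genes with a window (57.9%, against 3.99% of all genes). The list was made of genes known to be induced by interferon, so this share follows from its choice and does not bear on the genotypes. Among genes called at 8 weeks the element was in 3 of 34 with a window (8.82%).

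Genes induced by interferon-gamma, a product of activated T cells, had 0 calls in 15 by limma, with 5 lower at an unadjusted p under 0.05 and a median of -0.12. Cxcl9, a chemokine that draws activated T cells, lay at 3.13 to 3.86 against 2.94 to 4.25 (interval of the difference -0.36 to 0.46). Cxcl10 lay at 4.10 to 5.04 against 4.61 to 5.56 (difference -0.57, adjusted p = 0.25), and the transcription factor Irf1 at 6.29 to 6.65 against 6.75 to 6.93 without overlap (difference -0.36, adjusted p = 0.11). The mean over the list was 4.26 to 4.41 in Batf3-/- mice and 4.48 to 4.70 in Rag1-/- mice, with NOD mice at 5.62 to 7.43.

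**Figure D4:**
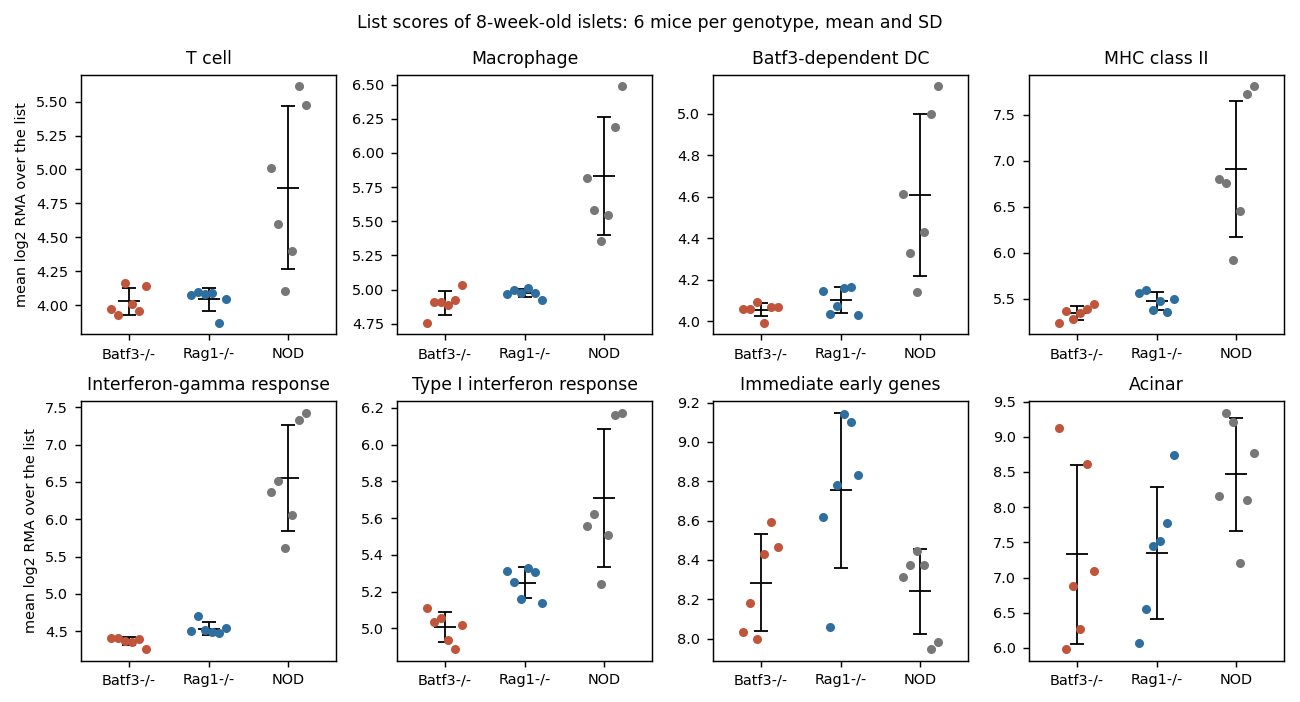
Mean log2 RMA value over the genes of 8 lists (vertical axis, each panel with its own scale) in islets of 8-week-old mice, with 1 point per mouse, 6 mice per genotype, and the mean with its SD in black. Batf3-/- and Rag1-/- mice overlap in the T cell (3.93 to 4.16 and 3.87 to 4.10), macrophage, dendritic cell, class II, immediate early and acinar panels, and do not overlap in the panels of the interferon-gamma and type I interferon responses.

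Socs3, a feedback inhibitor of cytokine signalling through JAK and STAT proteins, fell in Batf3-/- islets. It lay at 5.99 to 6.53 (median 6.28) against 6.87 to 7.67 (median 7.31), a 2.01-fold lower mean (log2 difference -1.01, standard error 0.16, adjusted p = 0.0206), with NOD mice between at 6.55 to 6.76. Its call was lost without Batf3-/- mouse 6 or Rag1-/- mouse 4 (adjusted p up to 0.0535) and when the mean of its probe sets was used, since the second probe set differed by -0.48. Immediate early genes, which turn on within minutes of a stimulus such as islet isolation, lay in the same direction without a call: 8 of 14 were lower and 1 higher at an unadjusted p under 0.05, with a median of -0.56. At 6 weeks the list lay the other way, with a median of 0.29, 2 genes higher and 0 lower at an unadjusted p under 0.05, and 2 of the 14 with the same sign at both ages. Junb differed by -0.89, Ier2 by -1.0, Zfp36 by -0.77 and Fosb by -0.84 (adjusted p 0.0504, 0.074, 0.0504 and 0.18), while Hspa1a differed by 0.51 (0.094). The mean over this list was 8.00 to 8.59 in Batf3-/- mice and 8.06 to 9.14 in Rag1-/- mice. It differed with the genotype, averaging 8.28 and 8.75, and was chosen as a covariate after the data were seen. A fit with it cannot separate its part from that of the genotype, so calls kept or lost there test no cause. With that mean as a covariate, 14 genes were called, 12 of them among the 46: 3830406C13Rik, Rsph1, Slc37a1, Sdc2, Cd44, Eif5b, Eif3a, Zc3h13, Hspb1, Mir7b, Snord52 and Vaultrc5. Socs3 was not called in that fit, where its difference was -0.67 (adjusted p = 0.147) against -1.01 without the covariate. The 5 clock genes lost their calls too, with differences of -0.66 for Arntl, -0.64 for Nfil3, 0.91 for Dbp, 0.80 for Hlf and 0.50 for Nr1d2 (adjusted p 0.0627 to 0.224), of which those of Arntl, Dbp and Hlf were larger than without it.

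Scd1, the desaturase that makes monounsaturated fatty acids, lay at 5.89 to 7.0 (median 6.67) against 7.18 to 7.95 (median 7.54), a 2.04-fold lower mean in Batf3-/- islets (adjusted p = 0.032). Insig1, which holds back the sterol-sensing machinery, fell with a log2 difference of -0.48 (adjusted p = 0.0451), and Irs2, the adaptor of the insulin receptor that beta cells need for growth, differed by -0.43 (adjusted p = 0.030). Acadl, the long-chain acyl-CoA dehydrogenase of fatty acid oxidation, rose, at 6.52 to 6.99 against 5.95 to 6.21 (log2 difference 0.62, standard error 0.09, adjusted p = 0.0138). Lancl1, a glutathione-binding protein gene 2 places from Acadl on chromosome 1, rose with it, at 7.75 to 8.14 against 6.94 to 7.46 (log2 difference 0.69, standard error 0.10, adjusted p = 0.0107). NOD mice lay at 6.12 to 6.60 for Acadl and at 7.14 to 7.45 for Lancl1. In the 12 fits without a mouse Scd1 held in 3, Insig1 in 2 and Irs2 in 3, with adjusted p up to 0.0886, 0.118 and 0.0862.

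Eif5b, which joins the ribosomal subunits at the start of translation, lay at 6.33 to 6.71 (median 6.57) against 7.21 to 8.16 (median 7.63), a 2.16-fold lower mean (adjusted p = 0.0079). Eif3a, the large subunit of initiation factor 3, lay at 9.06 to 9.44 against 9.68 to 9.95 (log2 difference -0.53, adjusted p = 0.0152). Golgb1, the Golgi protein giantin, lay at 7.43 to 8.03 against 8.31 to 8.73, and Rrbp1, a ribosome-binding protein of the endoplasmic reticulum, at 8.29 to 8.70 against 8.99 to 9.21 (adjusted p = 0.0246 and 0.0231). Zc3h13, part of the complex that methylates adenosines in RNA, lay at 5.56 to 6.02 against 6.29 to 7.02 (log2 difference -0.78, adjusted p = 0.0189). Golgb1 lost its call without Batf3-/- mouse 3 or Rag1-/- mouse 4 (adjusted p up to 0.0619), and Rrbp1 without Batf3-/- mouse 3 or Rag1-/- mouse 3, 4 or 6 (up to 0.063).

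None of 19 genes of endoplasmic reticulum stress was called by limma, but 10 were lower in Batf3-/- islets at an unadjusted p under 0.05 and the median was -0.19. Pdia4, Creld2 and Dnajb9, which help proteins fold in the endoplasmic reticulum, differed by -0.41, -0.40 and -0.36 (adjusted p 0.13, 0.17 and 0.094), and the chaperone Hspa5 by -0.32 (0.22). Atf4, Xbp1 and Ddit3, transcription factors of the stress response, differed by 0.08, -0.04 and -0.03, with intervals of -0.09 to 0.25, -0.19 to 0.12 and -0.23 to 0.17. At 6 weeks the median of the list was 0.05.

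Beta cell identity genes had 0 calls in 21 by limma, with 3 lower at an unadjusted p under 0.05 and a median of -0.07. Ins2 differed by 0.04 (interval -0.11 to 0.18), the transcription factor Pdx1 by -0.08 (-0.28 to 0.12) and the glucose transporter Slc2a2 by 0.00 (-0.14 to 0.15). Mafa, a late maturation factor, differed by -0.27 (adjusted p = 0.46), and the granule protein Chgb by -0.24 (0.35). Acinar genes had 0 calls in 23, with 1 lower at an unadjusted p under 0.05 and a median of -0.01. With the acinar mean as a covariate 44 of the 46 calls held.

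Of 13 genes induced by glucocorticoids, the stress hormones whose level follows the day, none was called by limma. At an unadjusted p under 0.05, 5 were higher and 1 lower, and the median was 0.20. Fkbp5, a co-chaperone of the glucocorticoid receptor, lay at 7.25 to 7.89 against 6.50 to 7.33 (difference 0.62, adjusted p = 0.094), Zbtb16 differed by 0.85 (0.16) and the metallothioneins Mt1 and Mt2 by 0.42 and 0.44 (0.074 and 0.093). At 6 weeks Fkbp5 differed by 0.88 and the median of the list was 0.31.

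The remaining called genes of known function were spread over roles. Gpr155, an integral membrane protein of the G protein-coupled receptor family, lay at 5.62 to 6.19 against 4.87 to 5.46, and Cldn11, a claudin of tight junctions, at 4.90 to 5.23 against 4.37 to 4.86. The lysosomal protease Ctsf lay at 7.27 to 7.74 against 6.73 to 7.12, and Cerkl, related to ceramide kinase, at 7.48 to 7.72 against 7.09 to 7.33. All 4 rose, with adjusted p of 0.032, 0.032, 0.049 and 0.032, and held in 4, 2, 0 and 3 of the 12 fits without a mouse (adjusted p up to 0.0934, 0.0886, 0.122 and 0.0891). Hspb1, a small heat shock protein read by 2 probe sets with differences of 0.80 and 0.80, and the cation channel gene Trpc4 also rose, with overlapping groups (adjusted p 0.032 for both, held in 2 and 3 of the 12 fits). Mest, an imprinted gene of growing tissue, fell, at 5.60 to 6.10 against 6.18 to 6.90 (adjusted p = 0.032, held in 4 of the 12). Ngp, a granule protein of immature neutrophils, was the 1 call of 14 neutrophil genes, against 0.231% of all genes. It lay at 2.69 to 3.12 against 3.36 to 3.50, near the bottom of the scale in both groups (adjusted p = 0.032, held in 1 of the 12). Cd46, a complement regulator, fell at a like low level, 2.64 to 3.00 against 3.12 to 3.61 (held in 3 of the 12).

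Of 348 microRNA, small nucleolar RNA and vault RNA genes tested, known by their symbols, 5 were called (1.44%, against 0.231% of all genes). They were looked at after their values had been seen, since the naming rule left most of them out. Vaultrc5, a vault RNA gene, lay at 6.93 to 7.88 (median 7.50) in Batf3-/- islets and at 6.03 to 6.68 (median 6.18) in Rag1-/- islets, a 2.31-fold higher mean (adjusted p = 0.0018), with NOD mice at 7.72 to 8.15. Snord52, a small nucleolar RNA that guides ribosomal RNA methylation, lay at 5.34 to 6.09 against 4.16 to 5.07, a 2.30-fold higher mean (adjusted p = 0.0032). Mir7b lay at 6.77 to 7.64 (median 7.11) against 8.17 to 9.04 (median 8.79), a 2.99-fold lower mean (log2 difference -1.58, standard error 0.16, adjusted p = 0.000221). For Mir7b the NOD mice, at 4.34 to 7.29 (median 5.75), overlapped the Batf3-/- mice and lay below every Rag1-/- mouse.

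Mir7b and Mir7-2 carry the same seed, the bases that pair with target transcripts, and the miR-7 family is abundant in islets and restrains insulin secretion and beta cell growth. Mir7-2 lay at 5.12 to 5.95 against 5.91 to 7.92 and fell as well (log2 difference -1.35, standard error 0.25, adjusted p = 0.032), with overlapping groups. Mir7-1, which gives the same mature miR-7a as Mir7-2, lay at 3.71 to 4.89 against 4.41 to 5.77 and was not called (difference -0.47, interval -0.98 to 0.05). The mature sequences below are from RefSeq (GRCm38.p6), with seed bases 2 to 8 in capitals, and show that the miR-7 forms share one seed that differs from that of miR-103, the product of Mir103-2, which rose by 0.60 (adjusted p = 0.0488).
mmu-miR-7b-5p: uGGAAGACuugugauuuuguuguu
mmu-miR-7a-5p: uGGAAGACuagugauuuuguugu
mmu-miR-103-3p: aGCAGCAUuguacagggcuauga
These probe sets read whole-transcript label, so they cover precursor and host RNA, and the mature microRNAs were not measured. Mir7-2 held in 2 and Mir103-2 in 1 of the 12 fits without a mouse, with adjusted p up to 0.0934 and 0.121.

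At 6 weeks, in 3 mice of each knockout that share no array with the 8-week comparison, 2 genes (0.01%) were called. Dennd4a, an activator of Rab10 GTPases, was read through 1 of its 9 probe sets, the one of highest mean. It lay at 5.87 to 6.24 in Batf3-/- and 7.55 to 7.67 in Rag1-/- islets (log2 difference -1.53, standard error 0.11, adjusted p = 0.0376). At 8 weeks it lay at 5.46 to 7.02 against 6.98 to 8.06, a difference of -1.26 that missed the threshold (adjusted p = 0.058). Upp2, a uridine phosphorylase, lay at 6.14 to 6.17 against 5.07 to 5.20 (log2 difference 1.03, adjusted p = 0.0376), and differed by 0.59 at 8 weeks (adjusted p = 0.41). Both calls at 6 weeks were lost when any 1 of the 6 mice was left out, where limma called 0 genes, and 1618 genes had an unadjusted p under 0.05 with all 6. Acinar means at this age were 11.97 to 12.26 in Batf3-/- and 11.96 to 12.37 in Rag1-/- mice.

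The genes called at 8 weeks mostly pointed the same way at 6 weeks. Of the 46, 38 had the same sign, against 50.2% of all genes. In 23 the sign was the same with an unadjusted p under 0.05, which 8.12% of all genes reached with either sign. In 19 the 6-week groups did not overlap and lay in the direction of 8 weeks. Of all genes, 11.7% did not overlap at 6 weeks, in either direction. Rsph1 differed by -1.22, Slc37a1 by -0.87, Sdc2 by -1.05, Cd44 by 0.73, Ccdc141 by -1.19 and Rtp4 by -0.81 at 6 weeks, each with groups that did not overlap. Rag1 was again higher in Rag1-/- islets, by a difference of -0.57. Of the 8 genes with the opposite sign, Mir7-2 (0.40) and Zc3h13 (0.27) had an unadjusted p under 0.05. Eif5b, Golgb1, Rrbp1, Bod1l and Ngp differed by 0.17, -0.01, 0.01, 0.02 and 0.01.

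**Figure D5:**
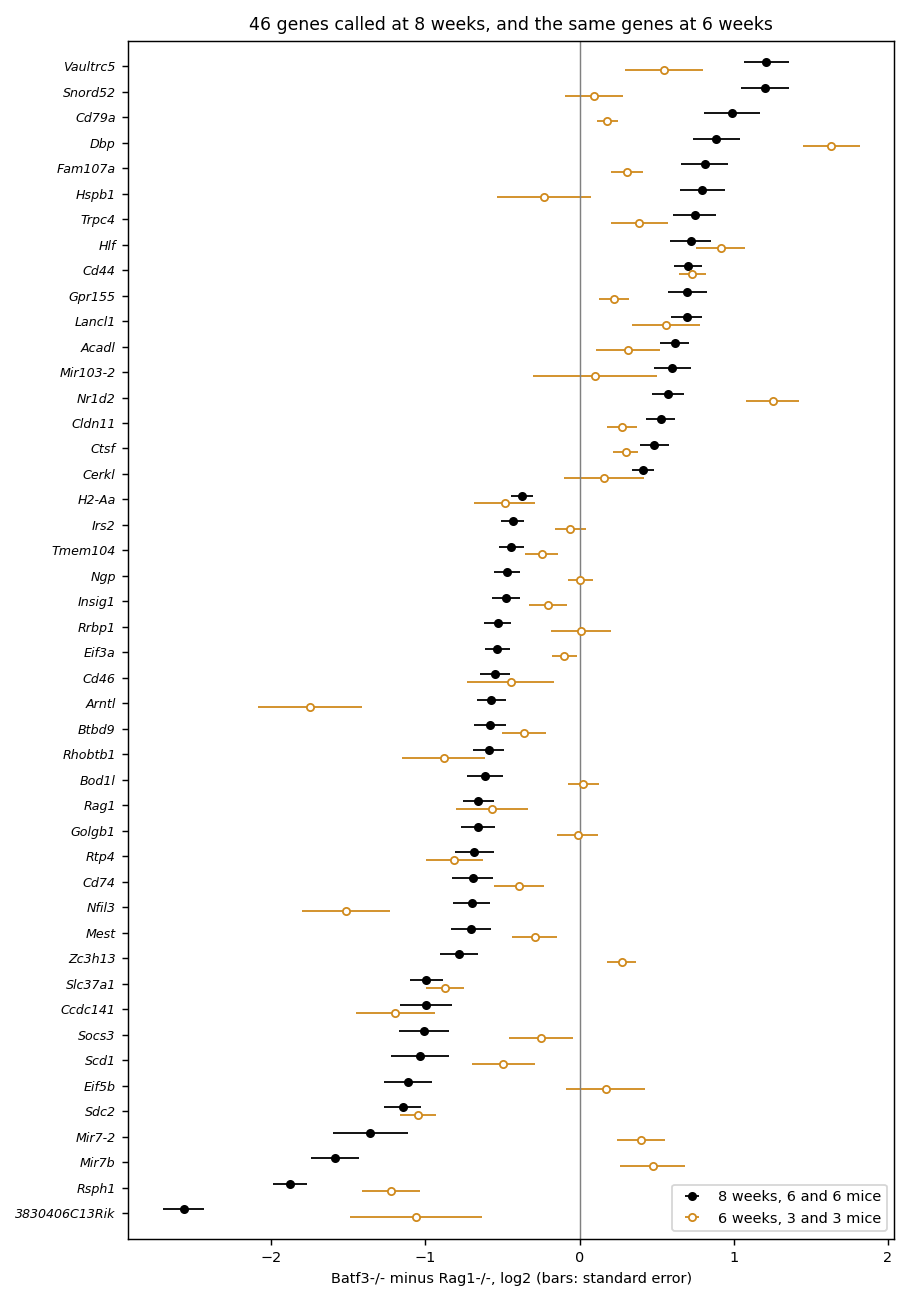
Difference between Batf3-/- and Rag1-/- islets (horizontal axis, log2, bars are the standard error) for the 46 genes called at 8 weeks, at 8 weeks (filled points, 6 and 6 mice) and in other mice at 6 weeks (open points, 3 and 3 mice). The open points lie on the same side of 0 in 38 genes, with Mir7b (-1.58 and 0.47) and Mir7-2 (-1.35 and 0.40) among those on the other side.

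The change of the genotype difference between the ages was tested over the 18 mice of both knockouts, and 4 genes (0.0201%) passed. Reg3g, an antibacterial lectin of the Reg family that exocrine tissue makes in pancreatitis, was listed at 4.65 to 6.52 in Batf3-/- and 9.72 to 11.05 in Rag1-/- islets at 6 weeks, and at 2.46 to 2.91 and 2.23 to 4.58 at 8 weeks. Its difference went from -4.86 to -0.16 (change 4.70, adjusted p = 0.0038). At 8 weeks the Reg3g medians were 2.54 and 2.41, near the bottom of the scale in both genotypes, which limits the difference that could be read there. The acinar mean was 11.97 to 12.26 in Batf3-/- and 11.96 to 12.37 in Rag1-/- mice at 6 weeks. At 8 weeks it was 5.98 to 9.13 and 6.07 to 8.74. The parts of the low Reg3g level and of acinar RNA in the change were not tested. Mir7b differed by 0.47 at 6 weeks and -1.58 at 8 weeks (change -2.06, adjusted p = 0.0038), Snord82 by 1.55 and -0.76 (change -2.31, adjusted p = 0.0078) and Ppme1, a protein phosphatase methylesterase, by 0.52 and -0.24 (change -0.76, adjusted p = 0.0469). Reg3a and Reg3b, of the same family as Reg3g, differed by -4.73 and -3.37 at 6 weeks and by -0.99 and -1.65 at 8 weeks. No Reg gene was called by limma at either age (0 of 7). At an unadjusted p under 0.05, 4 of the 7 were lower in Batf3-/- islets at 6 weeks and 1 at 8 weeks. At 6 weeks the groups did not overlap in 4 of the 7, against 11.7% of all genes, and the median difference was -1.68. All 7 had the same sign at both ages. Array medians were 5.29 to 5.34 at 6 weeks, above those of 8 weeks, so differences and not levels are compared between the ages.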

How the data were processed

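The authors deposited 1 table of log2 expression values over 30177 probe sets and 27 arrays, made by RMA in Arraystar per the labels (series design text). Affymetrix Expression Console and mm9 stand in the submitters' processing notes without a version or role. The array medians of the 2 ages differ, as if each age had been normalized by itself. The 21789 probe sets with 1 gene symbol were kept (1621 had several, 6767 none) and the one of highest mean was used for each of 19938 genes. Groups were fitted with limma 3.58.1 in R 4.3.3 (lmFit, eBayes) on the log2 values of the 12 arrays, two-sided, with Benjamini-Hochberg adjustment over all genes at 0.05. The same fit was run on the 6 arrays of 6 weeks, and the change between ages on 18 arrays. The fit of 8 weeks had 10 residual and 5.306 prior degrees of freedom. The script was tested on simulated data.

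Named genes are Batf3, Rag1, up to 15 called genes per direction whose groups do not overlap, leaving out predicted genes, microRNAs and small nucleolar RNAs, and from each list up to 4 members with the greatest difference and its defining markers. By this rule 12 higher and 15 lower genes were named. Others (3830406C13Rik, Btbd9, Arntl, Eif3a, Rrbp1, Cd46, Trpc4, Hspb1, Bod1l, Insig1, Irs2, Snord52, Snord82, Ppme1, Dennd4a, Upp2, Reg3g, the microRNAs and further list members) were chosen after their values were seen. The members and the 35 gene lists were chosen with earlier results of these data known. Mice are biological replicates per the labels. Replicate numbers did not pair the mice: deviations of same-numbered mice correlated at -0.07 to 0.07 at 8 weeks. RefSeq tables (GRCm38.p6) gave gene order, promoter windows and microRNA sequences. Gene order from that assembly was used without coordinates. Alternatives were the fit on more arrays, the replicate block, a filter on dim genes, the mean of probe sets, quantile normalization, median centring, an acinar covariate, array weights and leaving out each mouse. The covariate for immediate early genes was chosen after seeing the data.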

Additional observations from a re-analysis of the deposited data

Results flagged for a closer look

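In 5 of 126 groups examined 1 mouse lay far from the other 5, and chance flags about 1 in 20 groups. Cd74 in Batf3-/- mouse 3 was low, at 6.78. The mean of the Batf3-dependent dendritic cell genes was low in Batf3-/- mouse 4, at 3.99. Rtp4 was high in Rag1-/- mouse 5, at 6.71, and in that mouse the mean of the T cell genes was low, at 3.87. The mean of the interferon-gamma response genes was high in Rag1-/- mouse 2, at 4.70. The difference between the genotypes in Mir7b changed between 6 and 8 weeks by -2.06 (limma, adjusted p = 0.0038), with 6-week values of 7.05 to 7.64 in Batf3-/- and 6.61 to 7.13 in Rag1-/- islets.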

How the results depend on the processing

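At 8 weeks the number of calls (46, with 17 higher and 29 lower) was 101 (38 and 63) with all 27 arrays in the fit, 104 (37 and 67) with dim genes left out, 63 (16 and 47) with arrays centred on their medians and 14 (5 and 9) with the immediate early mean as a covariate. With the replicate number as a block, which does not pair these mice, it was 21 (6 and 15), 16 of them among the 46, and 0 at 6 weeks. Leaving out 1 mouse gave 17 to 47 calls, 5 to 20 of them higher and 11 to 27 lower, and 0 at 6 weeks. At 6 weeks there were 70 calls with all 27 arrays, with 1 of the 2 among them. There were 5 changes between ages with all 27 arrays, with 3 of the 4 among them, and 15 with dim genes left out, with all 4 among them. No called gene changed direction in any of the 22 alternatives, and 10 were called in all 22. The cause of these shifts was not tested. The 18-array fit of 8 weeks, quantile normalization, the mean of probe sets, the acinar covariate and array weights gave 51 to 62 calls. With all 18 arrays of 8 weeks 36 of the 46 calls held and Arntl, Nfil3, Cd74, H2-Aa, Rtp4, Cd79a, Mest, Insig1, Bod1l and Mir103-2 lost theirs (adjusted p 0.0505 to 0.634). With all 27 arrays 38 held and Arntl, Nfil3, Cd74, H2-Aa, Rtp4, Cd79a, Cerkl and Mir103-2 lost theirs (0.0532 to 0.557). The called gene with the smallest difference was H2-Aa, at -0.37.

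Among genes named without a call, differences close to 0 changed sign under some settings, all with adjusted p over 0.5. With the immediate early mean as a covariate the difference was -0.033 for Ciita, -0.033 for Clec9a, -0.38 for Cxcl9, 0.0074 for Ddit3, 0.0017 for Lyz2, 0.033 for Per2, 0.063 for Reg3g, -0.018 for Slc2a2 and 0.014 for Xbp1. It was -0.013 for Ighm with the mean of its probe sets and -0.023 for Slc2a2 with arrays centred on their medians. Leaving out 1 mouse gave -0.091 to 0.0095 for Batf3, -0.21 to 0.010 for Bst2, -0.15 to 0.024 for Cd8a, -0.0054 to 0.11 for Ciita, -0.10 to 0.023 for Csf1r and -0.061 to 0.20 for Cxcl9. It gave -0.073 to 0.019 for Ddit3, -0.020 to 0.13 for Itgae, -0.27 to 0.21 for Reg3g and -0.019 to 0.027 for Slc2a2.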

Other observations

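Among cell types not described above, none of the markers of endothelial cells (12 measured), fibroblasts and stellate cells (15), duct cells (8), other endocrine cells (10) or type 2 innate lymphoid cells (10) was called by limma. At an unadjusted p under 0.05, 2 endothelial genes were higher and 1 lower in Batf3-/- islets, with a median difference of 0.12, 1 duct gene was lower and 1 other endocrine gene was higher. Neither list of fibroblasts and stellate cells or of type 2 innate lymphoid cells held a gene at that level. Regulatory and checkpoint genes of lymphocytes had 0 calls in 12, with 3 lower at an unadjusted p under 0.05 and a median of -0.08. Cytokine genes had 0 calls in 21, with 1 higher and 2 lower, and cell cycle genes 0 in 17, with 1 higher and 1 lower.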
